A study of Mus musculus with 10 samples.

Results

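Integrins are the receptors through which macrophages hold on to matrix and to other cells, each one a pair of an α and a β chain at the cell surface. The β2 pairs belong to leukocytes: αLβ2 (LFA-1) and αMβ2 (Mac-1, the complement receptor CR3) bind ICAM1 on neighboring cells, and αXβ2 (CR4, CD11c) binds iC3b and fibrinogen. The β1 and β3 pairs bind fibronectin, VCAM1 and other proteins with an RGD or related motif, and ICAM1 itself is a known target of NF-κB in cells that meet bacterial products. Here the genes of 6 α chains (Itgam, Itgal, Itgax, Itga4, Itga5 and Itgav), 3 β chains (Itgb1, Itgb2 and Itgb3) and the ligand Icam1 were followed through the whole series. They were taken by name, as the rows whose Ensembl identifier carries one of these symbols, which gave 10 of the 43432 genes in the table.

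The cells were RAW264.7, 1 established mouse macrophage line, so the values describe that line and not primary macrophages. There were 5 conditions with 2 libraries each: solvent alone (0.5% DMSO, no LPS), solvent with 1 µg/mL LPS (DMSO + LPS), and 9-keto-hexadec-7(E)-enoic acid, the cyanobacterial fatty acid named compound 1, at 32, 10 or 3.2 µM with the same LPS. Compound or solvent was given 1 h ahead of LPS, and RNA was taken after 12 h. No condition held the compound without LPS, so each dose is read against DMSO + LPS. The libraries of a condition carry biological replicate numbers, but nothing in the labels says that they came from separate passages, and p-values measure the spread between these libraries.

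Total counts per library lay between 45966803 and 58976377. All 10 genes passed the filter on low counts and were among the 14172 tested. Levels are given in CPM, counts scaled to the library total after TMM (edgeR's correction for library composition). Fold changes and adjusted p are from edgeR's quasi-likelihood test with Benjamini-Hochberg adjustment over the whole tested set. Called means a change of 1.5-fold or more together with an adjusted p under 0.05. The smallest p that an exact permutation of 2 libraries against 2 can give is 0.333, and the fit borrows its spread from all genes and conditions.

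The labels were checked first on genes of known response. Nos2 and Il1b, LPS-induced genes, rose from 0.0170 and 1.15 CPM in DMSO to 206 and 1535 CPM in DMSO + LPS, and Nqo1, a target of Nrf2, went from 2.62 CPM in DMSO + LPS to 16.2 CPM at 32 µM. All 6 macrophage markers (Adgre1, Cd14, Csf1r, Cd68, Lyz2 and Spi1) were expressed, with summed levels of 10588 to 11524 CPM in DMSO, 9673 to 9839 CPM in DMSO + LPS and 7560 to 7983 CPM at 32 µM. The 3 T cell, 3 B cell and 3 endothelial markers summed to at most 0.0699, 0.354 and 1.19 CPM in any library. A pair of libraries stood apart: the epithelial markers Epcam, Krt8 and Cdh1 summed to 36.3 CPM in replicate 1 at 10 µM and to 5.52 CPM in replicate 1 at 3.2 µM, against at most 0.0680 CPM in the other 8 libraries. The fibroblast markers Pdgfrb, Dcn and Col3a1 summed to 5.37 and 1.34 CPM in the same libraries and to between 0.140 and 0.652 CPM elsewhere. Results at these doses were therefore refitted without those libraries. The refit called 0 of the 10 genes at either dose and moved the log2 fold change of Itgav at 10 µM from 0.20 to 0.35 (adjusted p = 0.497) and that of Itga4 from -0.0090 to 0.14 (adjusted p = 0.780). At 10 µM it gave Itgal -0.085, Itgb2 0.028, Itga5 0.19 and Itgb3 0.78, with adjusted p of 0.369 or more. Ribosomal RNA features took 2.71% of replicate 2 at 32 µM and from 0.125% to 0.316% of each other library.

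Of the 10 genes, 7 have a promoter in the RefSeq set for GRCm38.p6, and the 250 bases before the annotated start are shown for 4 of them: Icam1 and Itgam, which differed from DMSO + LPS in opposite directions at 32 µM, and Itga5 and Itgax, which rose most under LPS. Capitals mark letters that match a searched motif on either strand. Icam1 lies at chr9:21015690-21015939, Itgam at chr7:128062390-128062639 and Itgax at chr7:128129300-128129549 (all plus strand), and Itga5 at chr15:103366792-103367041 (minus strand, printed in the gene's direction).
Icam1: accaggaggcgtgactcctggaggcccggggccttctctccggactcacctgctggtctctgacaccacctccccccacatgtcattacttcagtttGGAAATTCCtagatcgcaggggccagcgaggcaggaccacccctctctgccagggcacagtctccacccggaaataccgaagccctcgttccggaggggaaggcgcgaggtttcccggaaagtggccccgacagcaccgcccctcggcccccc
Itgam: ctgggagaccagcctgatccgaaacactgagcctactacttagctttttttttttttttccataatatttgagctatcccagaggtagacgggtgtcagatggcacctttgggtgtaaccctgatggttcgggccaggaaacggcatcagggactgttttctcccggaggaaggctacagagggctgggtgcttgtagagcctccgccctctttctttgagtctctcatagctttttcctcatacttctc
Itga5: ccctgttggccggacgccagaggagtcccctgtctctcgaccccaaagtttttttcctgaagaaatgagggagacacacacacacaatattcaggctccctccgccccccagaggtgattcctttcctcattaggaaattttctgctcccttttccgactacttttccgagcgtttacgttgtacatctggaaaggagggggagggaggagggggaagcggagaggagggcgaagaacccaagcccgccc
Itgax: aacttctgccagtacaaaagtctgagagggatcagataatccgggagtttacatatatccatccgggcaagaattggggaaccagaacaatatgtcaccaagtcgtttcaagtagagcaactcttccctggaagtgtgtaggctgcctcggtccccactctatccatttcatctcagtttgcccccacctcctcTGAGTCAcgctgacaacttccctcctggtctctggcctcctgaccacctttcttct
The capitals in Icam1 are GGAAATTCC, a match to the palindromic NF-κB motif GGAANTTCC that begins 153 bases before the start, and 0.813% of the 32851 promoters of the set hold such a match. The capitals in Itgax match the AP-1 motif TGANTCA, which 6.75% of promoters hold and which begins 56 bases before the start. The other motifs searched were GGGANTTTC (NF-κB kappa type, in 0.941% of promoters), GAGGAAGT (PU.1, in 2.44%) and TTCNNTTTC (interferon response, in 7.13%). None of the 5 motifs matched in the printed windows of Itgam and Itga5, nor in those of Itga4 and Itgb1, while Itgav held 1 match each to GAGGAAGT and TTCNNTTTC. A match is a description of letters in this window and was not tested for binding.

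LPS alone changed most of the family. In DMSO + LPS against DMSO, 6 of the 10 genes were called higher (Itgam, Itgal, Itgax, Itgb2, Itga5 and Icam1) and 1 was called lower (Itga4). Over all genes tested 14.6% were called higher and 13.6% lower. The 10 genes were chosen with earlier results of these data known, so the shares side by side are a description. With scaling by library size alone the median of all genes moved to -0.20 on the log2 scale and the calls split into 1582 higher and 2928 lower instead of 2068 and 1921, and the 7 members stayed called while Itgb3 was added as lower (adjusted p = 0.0408). The median log2 fold change was 0.98 over the 10 genes and 0.0026 over all genes.

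**Figure D1:**
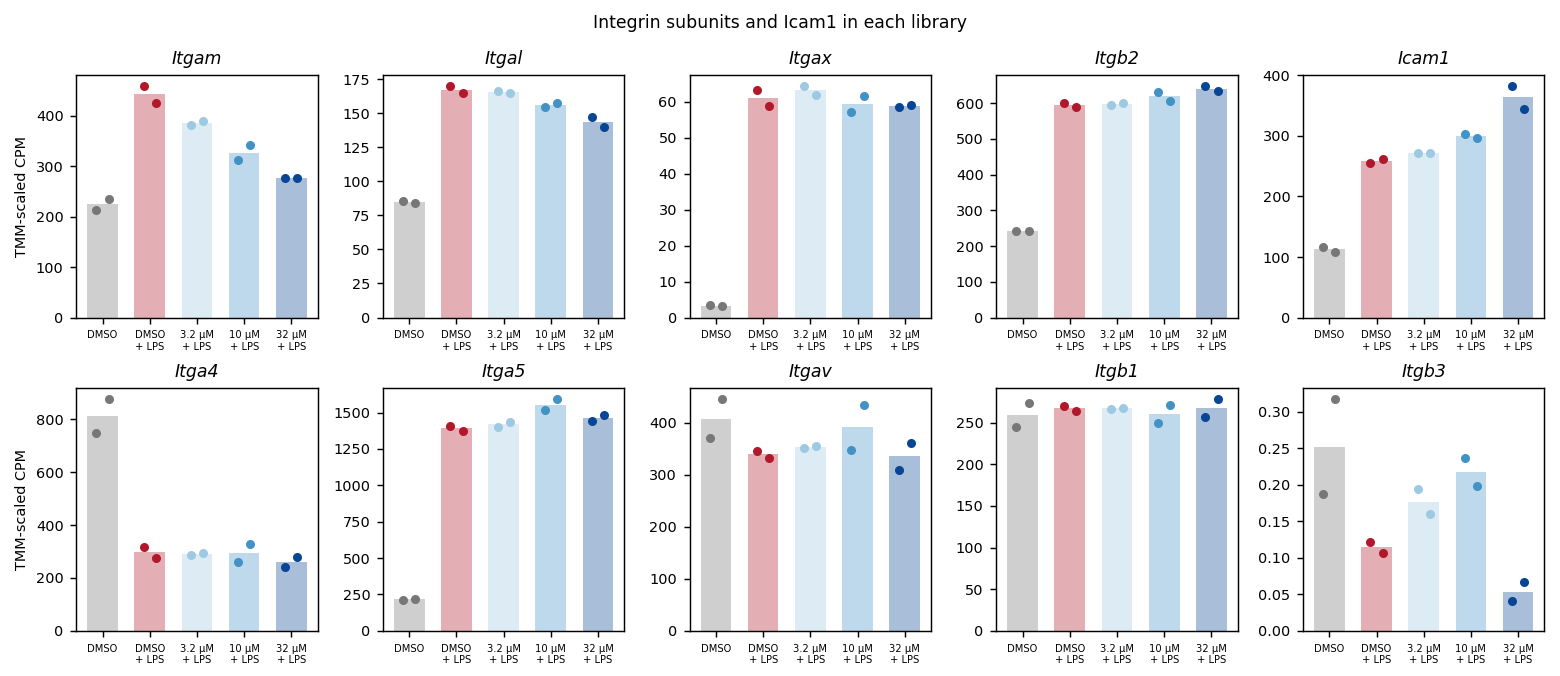
Level of each gene (y axis, TMM-scaled CPM from 0) in the 5 conditions (x axis), with bars for the mean of 2 libraries and points for the libraries. Itgam is lower and Icam1 higher at each higher dose, while Itgax, Itgb2, Itga4 and Itga5 stay near their DMSO + LPS level at every dose.

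Itgam encodes αM (CD11b), the chain that gives Mac-1 its binding of iC3b, fibrinogen and ICAM1. The gene lies at chr7:128062640-128118491 (GRCm38, plus strand), under the annotated protein-coding gene Gm49368 of the same strand, which has no row in the deposited counts. It stood at 214 and 234 CPM in DMSO and at 458 and 425 CPM in DMSO + LPS, a rise of 1.97-fold (log2 fold change 0.98, SE 0.067, adjusted p = 7.39e-06). With the compound it stood at 381 and 389 CPM at 3.2 µM, 311 and 341 CPM at 10 µM and 277 and 277 CPM at 32 µM. The libraries of the 5 conditions did not overlap with each other, and those at 32 µM lay between DMSO and every other LPS condition. At 32 µM it fell by 0.67 on the log2 scale against DMSO + LPS (SE 0.066, 95% CI -0.83 to -0.52, adjusted p = 4.69e-04), to a ratio of 0.627. Itgam was the only one of the 10 genes called at any dose, beside 2.91% of all genes called lower and 1.26% called higher at 32 µM. Every one of the 21 refits with another scaling, filter, tool or set of libraries called it lower, with log2 fold changes from -0.73 to -0.62.

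The difference from DMSO that LPS made in Itgam was smaller at each higher dose. Taking the gap between the DMSO and DMSO + LPS means as 100%, the mean kept 73.8% with 3.2 µM, 47.0% with 10 µM and 24.4% with 32 µM. With scaling by library size alone these shares were 67.7%, 38.5% and 10.5%. At 10 µM the log2 fold change was -0.44 (SE 0.066, adjusted p = 0.0143), a ratio of 0.739 that did not reach 1.5-fold. With edgeR on the 4 libraries compared it was again -0.44, but the adjusted p was 0.148. In the 10 fits with 1 library left out the log2 fold change ran from -0.53 to -0.37. Without the 2 libraries that held epithelial markers it was -0.37 with an adjusted p of 0.184, and leaving out replicate 1 of DMSO + LPS gave -0.38 with an adjusted p of 0.150. At 3.2 µM it was -0.20 (SE 0.066, unadjusted p = 0.0171, adjusted p = 0.999), and -0.18 without those 2 libraries. Cells given 32 µM with LPS held 1.24-fold more Itgam than cells in DMSO (log2 fold change 0.31, SE 0.066, adjusted p = 0.00535), below the fold cutoff, but with scaling by library size alone the log2 fold change was 0.10 and did not pass the test (adjusted p = 0.255). The difference between 32 and 10 µM was -0.24 (95% CI -0.39 to -0.082, adjusted p = 0.156). The summed macrophage markers were also lower at 32 µM, as given above, but the single markers went both ways. Between DMSO + LPS and 32 µM, mean Lyz2 went from 4127 to 2707 CPM and Cd14 from 3311 to 2549 CPM. Adgre1 went from 255 to 206 CPM and Spi1 from 644 to 593 CPM, while Csf1r rose from 814 to 1071 CPM. Cd68 went from 605 to 647 CPM, with libraries that overlapped. The part of these markers in the fall of Itgam was not tested. In bulk RNA, fewer cells of a kind and less RNA per cell cannot be told apart.

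The closest patterns to that of Itgam over the 10 libraries, among 9561 other genes with a mean of at least 5 CPM, were those of Trim25 and Lyn. Trim25, a ubiquitin ligase of antiviral sensing, had a Pearson r of 0.990 with Itgam on the log2 scale. It stood at 379 CPM ± 19.1 in DMSO, 616 ± 7.96 in DMSO + LPS, 590 ± 4.96 at 3.2 µM, 513 ± 36.9 at 10 µM and 440 ± 10.5 at 32 µM (SD, n = 2). Lyn, a Src-family kinase that acts downstream of leukocyte integrins and Fc receptors, had an r of 0.987, with 191 CPM ± 7.11 in DMSO, 317 ± 4.12 in DMSO + LPS and 232 ± 11.7 at 32 µM. The libraries share 5 conditions, so the points are not independent and r is a description.

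Itgal and Itgax are the neighbors of Itgam in the genome as well as in function. Itgal ends 727502 bases before Itgam begins, and Itgax begins 11056 bases after Itgam ends. Itgal (αL, the LFA-1 chain that binds ICAM1) stood at 85.4 and 84.4 CPM in DMSO and at 170 and 165 CPM in DMSO + LPS, a rise of 1.97-fold (SE of the log2 value 0.043, adjusted p = 5.94e-07). It held 166 and 165 CPM at 3.2 µM, 155 and 158 CPM at 10 µM and 147 and 140 CPM at 32 µM. At 32 µM both libraries lay under both of DMSO + LPS, with a log2 fold change of -0.22 (SE 0.043, adjusted p = 0.0153), and the ratio of 0.858 did not reach the fold cutoff. The adjusted p rose above 0.05 in 6 of the 21 refits, to 0.0533 with the likelihood ratio test, 0.0791 on the 4 libraries compared, 0.0589 without the libraries with epithelial markers, 0.134 and 0.0676 without replicate 1 or 2 of DMSO + LPS and 0.117 without replicate 2 at 32 µM. Itgal thus kept 71.3% of the LPS difference at the dose at which Itgam kept 24.4% (66.5% and 10.5% with scaling by library size alone). Against DMSO it was still called higher at 32 µM with LPS (1.69-fold, adjusted p = 3.05e-06), except with scaling by library size alone, where its log2 fold change of 0.56 was under the cutoff.

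Itgax (αX, CD11c) had the largest fold change of the 10 genes under LPS. It stood at 3.43 and 3.14 CPM in DMSO and at 63.4 and 58.9 CPM in DMSO + LPS, which is 18.6-fold (log2 fold change 4.22, SE 0.076, adjusted p = 5.76e-09). The doses did not separate from DMSO + LPS: 64.4 and 62.0 CPM at 3.2 µM, 57.3 and 61.7 CPM at 10 µM and 58.5 and 59.1 CPM at 32 µM. At 32 µM the log2 fold change was -0.056, with a 95% CI from -0.20 to 0.090 (adjusted p = 0.719). Counts in DMSO were 202 and 178, so the low level there rests on few reads compared with the other α chains.

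Itgb2 encodes β2 (CD18), which αL, αM and αX all need to reach the surface. It stood at 241 and 243 CPM in DMSO and rose 2.46-fold to 599 and 590 CPM in DMSO + LPS (log2 fold change 1.30, SE 0.041, adjusted p = 9.30e-08). It held 595 and 601 CPM at 3.2 µM, 632 and 606 CPM at 10 µM and 648 and 633 CPM at 32 µM. The last pair lay above DMSO + LPS by 0.11 on the log2 scale (95% CI 0.014 to 0.20), which did not pass the adjusted test (adjusted p = 0.162). The sum of the α partners, most of it Itgam, was lower relative to β2 at each higher dose. Per kilobase of the longest coding transcript, the sum of Itgam, Itgal and Itgax came to 0.775 and 0.817 of Itgb2 in the DMSO libraries and to 0.724 and 0.689 of it in those of DMSO + LPS. The ratio was 0.644 and 0.642 with 3.2 µM, 0.519 and 0.580 with 10 µM and 0.467 and 0.472 with 32 µM. The ratio of Itgax to Itgb2 did not follow that order, with 0.0776 and 0.0732 in DMSO + LPS and 0.0795 and 0.0758 with 3.2 µM. By the median coding transcript, which is 630 nt for Itgb2, the summed ratio was 0.180 and 0.171 in DMSO + LPS and 0.118 and 0.119 with 32 µM.

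Within that sum the share of Itgam was lower with dose as well. It was 72.7% and 74.7% in the DMSO libraries and 67.0% and 66.3% in those of DMSO + LPS. Each dose lay below the last, with 63.0% and 63.9% for 3.2 µM, 60.3% and 61.6% for 10 µM and 58.1% and 58.8% for 32 µM. The ratio of Itgam to Itgal was 3.01 and 2.88 in DMSO + LPS and 2.10 and 2.21 at 32 µM. These ratios are taken within a library and do not change with its scaling. Itgax made up 1.35% and 1.16% of the sum in DMSO and between 10.6% and 14.5% in every library with LPS. Itgad, the remaining β2 partner, was at or below 0.0349 CPM in the means of DMSO, DMSO + LPS and 32 µM and was too low to test.

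**Figure D2:**
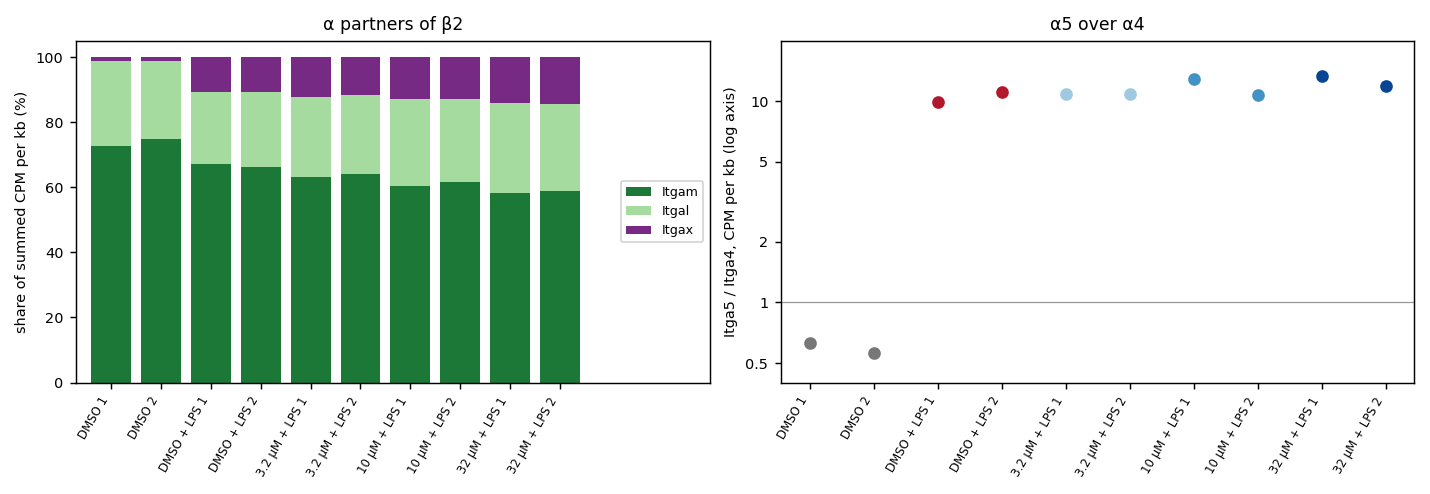
Left, share of Itgam, Itgal and Itgax in their summed CPM per kb (y axis, percent) in each library (x axis). Right, ratio of Itga5 to Itga4 in CPM per kb (y axis, log scale) in each library, with a line at 1. The Itgam share is highest in DMSO and lowest at 32 µM, and the Itga5 to Itga4 ratio is under 1 in both DMSO libraries and at least 9.91 in all 8 libraries with LPS.

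Icam1, the ligand of LFA-1 and Mac-1, was higher, not lower, at 32 µM than in DMSO + LPS. The gene lies at chr9:21015985-21028817 (GRCm38, plus strand), and its end is overlapped by the antisense gene Gm47079, which has no row in the deposited counts. It stood at 117 and 109 CPM in DMSO and at 255 and 262 CPM in DMSO + LPS, a rise of 2.29-fold (log2 fold change 1.19, SE 0.062, adjusted p = 1.51e-06). It then held 272 and 272 CPM at 3.2 µM, 303 and 296 CPM at 10 µM and 382 and 345 CPM at 32 µM. Both libraries of each dose lay above both of the next lower one. At 32 µM the log2 fold change against DMSO + LPS was 0.49 (SE 0.061, 95% CI 0.35 to 0.64, adjusted p = 0.00162). That 1.41-fold difference passed the adjusted p but not the fold cutoff, so Icam1 was not called, nor in any of the 21 refits, where it ran from 0.42 to 0.56. The lowest value came without replicate 1 at 32 µM and the highest without replicate 2. At 10 µM the log2 fold change was 0.21 (SE 0.061, adjusted p = 0.160), and 0.20 without the 2 libraries with epithelial markers (adjusted p = 0.572). The difference between 32 and 10 µM was 0.28 (95% CI 0.14 to 0.42, adjusted p = 0.0659). Against DMSO, cells given 32 µM with LPS held 3.22-fold more Icam1 (adjusted p = 3.00e-07).

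**Figure D3:**
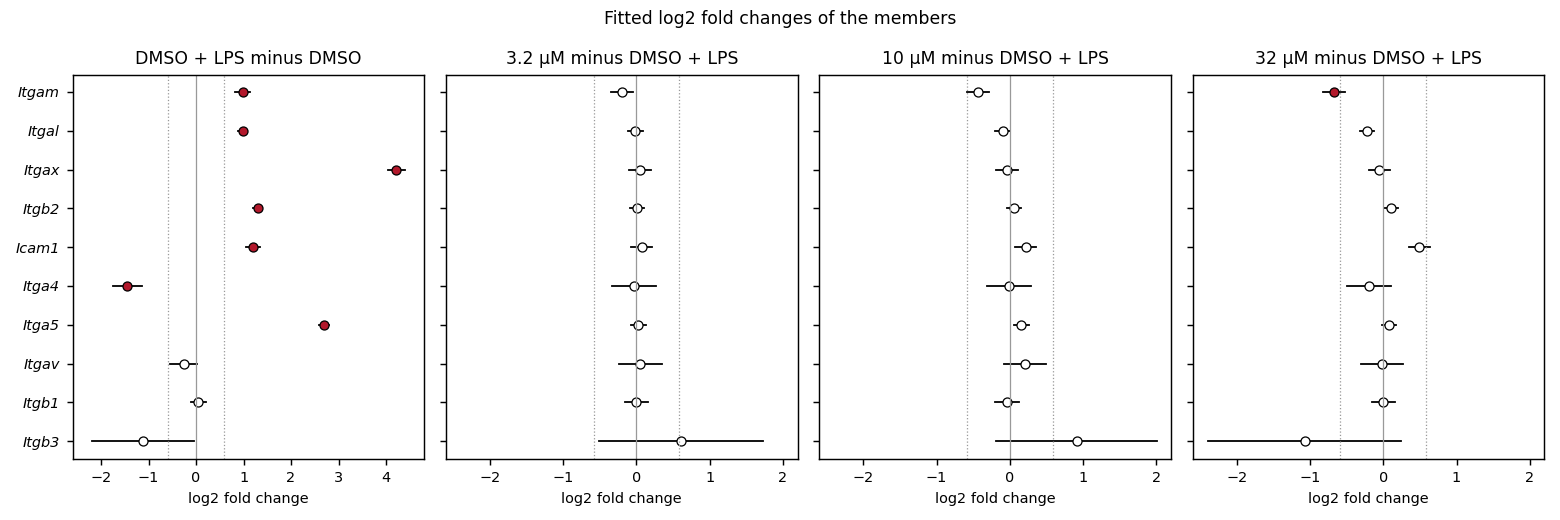
Fitted log2 fold change (x axis) of each gene (y axis) for LPS and for each dose against DMSO + LPS, with 95% confidence intervals. Filled points were called, open points were not, and dotted lines mark 1.5-fold. In the panel for 32 µM, which shares its scale with the other doses, only Itgam at -0.67 is filled, and Icam1 at 0.49 is the member farthest to the right.

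Among the α chains that pair with β1, Itga4 fell and Itga5 rose under LPS. Itga4 (α4 of VLA-4, a receptor of VCAM1 and fibronectin) stood at 750 and 875 CPM in DMSO and at 317 and 277 CPM in DMSO + LPS, a ratio of 0.365 (log2 fold change -1.45, SE 0.13, adjusted p = 3.90e-05). Itga5 (α5, the classical fibronectin receptor chain) stood at 212 and 220 CPM in DMSO and at 1407 and 1375 CPM in DMSO + LPS, which is 6.44-fold higher (log2 fold change 2.69, SE 0.045, adjusted p = 4.33e-09). Per kilobase, the ratio of Itga5 to Itga4 was 0.632 and 0.560 in DMSO and 9.91 and 11.1 in DMSO + LPS.

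Neither gene was called at a dose. Itga4 held 288 and 294 CPM at 3.2 µM, 262 and 328 CPM at 10 µM and 241 and 278 CPM at 32 µM, and its groups overlapped at all 3 doses. At 32 µM the log2 fold change was -0.20 (95% CI -0.49 to 0.10, adjusted p = 0.458). Itga5 held 1402 and 1434 CPM at 3.2 µM, 1515 and 1590 CPM at 10 µM and 1444 and 1486 CPM at 32 µM. Both libraries at 10 and at 32 µM lay above both of DMSO + LPS, but with log2 fold changes of only 0.16 (adjusted p = 0.127) and 0.075 (adjusted p = 0.366).

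Itgav encodes αV, a partner of β1, β3, β5 and β8 in receptors of vitronectin and latent TGFβ. It stood at 371 and 445 CPM in DMSO, 346 and 333 CPM in DMSO + LPS, 350 and 355 CPM at 3.2 µM, 348 and 434 CPM at 10 µM and 310 and 361 CPM at 32 µM. It was called in none of the comparisons, and the log2 fold change under LPS was -0.26 (95% CI -0.55 to 0.024, adjusted p = 0.115), or -0.47 with scaling by library size alone (adjusted p = 0.0114), under the fold cutoff in both. Itga4 and Itgav also had the widest spread of the 9 genes above 1 CPM, with SDs of up to 15.8% and 15.5% of the mean at 10 µM. They have the longest transcripts of the 10 genes (9767 and 7054 nt). In DMSO and at 10 and 32 µM replicate 2 was the higher for both, and in these libraries genes with transcripts under 1000 nt ran lower, with medians of -0.40, -0.12 and -0.28 on the log2 scale against the other libraries. With that short-transcript score in the fit, no call among the 10 genes changed.

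Itgb1 encodes β1, the shared partner of α4, α5 and αV. It was flat through the series: 245 and 274 CPM in DMSO, 271 and 264 CPM in DMSO + LPS, 267 and 268 CPM at 3.2 µM, 249 and 271 CPM at 10 µM and 257 and 278 CPM at 32 µM. The log2 fold change under LPS was 0.044 (95% CI -0.12 to 0.21, adjusted p = 0.639), and it was -0.16 with scaling by library size alone. At 32 µM it was 0.0011, with a 95% CI of -0.16 to 0.16. The sum of Itga4, Itga5 and Itgav per kilobase was 2.77 and 2.82 times Itgb1 in DMSO and between 5.62 and 6.45 times in the libraries with LPS. That contrast depends on the transcript used for length, since by the median coding transcript (688 nt for Itgav) the ratio was 6.15 and 6.49 in DMSO and between 7.07 and 8.58 with LPS.

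Itgb3 (β3, the vitronectin receptor chain known from platelets and osteoclasts) was close to absent. The DMSO libraries held 11 and 18 counts and those of DMSO + LPS 7 and 5. With the compound there were 9 and 8 counts for 3.2 µM, 11 and 9 for 10 µM and only 2 and 3 for 32 µM. It passed the filter through the higher libraries, so its tests carry little weight. Under LPS the ratio of scaled counts was 0.459, with an exact 95% counting interval of 0.213 to 0.927, and edgeR gave an adjusted p of 0.0783. At 32 µM against DMSO + LPS the ratio was 0.461 with an interval of 0.127 to 1.41, a difference not detectable at this depth. The intervals cover counting error only.

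Ordered by level per kilobase of the longest coding transcript, the family in DMSO began with Itga4 (83.2 CPM per kb) and Itgb2 (81.6), whose libraries overlapped, followed by Itgb1 (68.0) and Itgav (57.8). Itga5 (49.3), Itgam (47.8) and Icam1 (44.5) came next, and the ranges of neighbors in that trio overlapped. Itgal (16.3), Itgax (0.812) and Itgb3 (0.0436) closed the order. In DMSO + LPS the order was Itga5 (317 CPM per kb), Itgb2 (200), Icam1 (102), Itgam (94.3), Itgb1 (70.1), Itgav (48.1), Itgal (32.0), Itga4 (30.4), Itgax (15.1) and Itgb3 (0.0198). Only Itgal and Itga4 overlapped there. At 32 µM Itgam (59.2) had dropped below Itgb1 (70.2), and Icam1 had reached 143 CPM per kb. The order turns with the transcript used: by the median coding transcript Itgav (593 CPM per kb) and Itgb2 (384) led in DMSO, and Itgb2 (944), Itgav (493) and Itga5 (317) in DMSO + LPS, while Itgam lay below Itgb1 in both.

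At 10 µM, 0 of the 10 genes were called by edgeR, where 0.282% of all genes were called higher and 0.579% lower. In that test 3 of the 10 had an unadjusted p below 0.05 (Itgam, Itga5 and Icam1), beside 1709 of the 14172 genes tested. DESeq2 and edgeR's likelihood ratio test also called 0 of the 10. At 3.2 µM edgeR's quasi-likelihood test called 0 genes of the whole table (0.00% in each direction), with 600 at an unadjusted p below 0.05, of which Itgam was the only member, and DESeq2 called 1 gene and the likelihood ratio test 3, none of them a member. Between 32 and 10 µM edgeR's quasi-likelihood test, DESeq2 and the likelihood ratio test each called 0 of the 10. The quasi-likelihood test called 0.169% of all genes higher and 1.15% lower. In it 4 of the 10 (Itgam, Itgal, Itgb3 and Icam1) had an unadjusted p below 0.05, beside 1777 of the 14172 genes tested. For 32 µM with LPS against DMSO, 5 were called higher (Itgal, Itgax, Itgb2, Itga5 and Icam1) and 2 lower (Itga4 and Itgb3), where 13.8% and 13.3% of all genes were called. Itgb3 held 11 and 18 counts in DMSO and 2 and 3 at 32 µM. It passed the count filter through its higher libraries, those of DMSO among them, so its call in this comparison carries little weight. This comparison and the one of LPS share the DMSO libraries, and the call of Itgb3 was lost with DESeq2 (adjusted p = 0.0686), without DMSO replicate 2 (0.0885) and without replicate 1 at 32 µM (0.0955).

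The rest of the adhesion machinery was read from 6 lists of 86 genes, of which 65 were tested. The lists were chosen with earlier results of these data known, so their shares beside those of all genes are a description. Under LPS edgeR's quasi-likelihood test called 24 higher (36.9% of the 65, beside 14.6% of all genes tested) and 10 lower (15.4%, beside 13.6%), with a median log2 fold change of 0.34 beside 0.0026. At 32 µM it called 0 higher and 3 lower (4.62%, beside 2.91%), at 10 µM 0 and 2 (3.08%, beside 0.579%) and at 3.2 µM 0 and 0, with medians of -0.052, -0.0015 and -0.0044, beside 0.0082, 0.016 and 0.0040 over all genes tested. Genes with 0 counts in DMSO, set at a lower bound, leave the LPS medians of the 6 lists as they are. The genes this test called were ligands, Spp1, Thbs1 and Tnc at 32 µM and Spp1 and Thbs1 at 10 µM. Tnc was also called lower at 10 µM with the short-transcript score (adjusted p = 0.00345) and with a replicate block in which the numbers of DMSO + LPS were crossed (adjusted p = 0.0322). Itga6, the α6 laminin receptor chain, lay near the threshold at 32 µM (log2 fold change -0.63, adjusted p = 0.0550) and was called lower in 8 alternatives, by DESeq2 (adjusted p = 0.0467), by the likelihood ratio test (0.0416) and in 6 refits of the quasi-likelihood test (0.00990 to 0.0493). At 3.2 µM 3 alternatives called Thbs1 lower: the likelihood ratio test (adjusted p = 0.00287), the 4 libraries compared (6.82e-04) and the short-transcript score (0.00387), while DESeq2 called 0 list genes. In the quasi-likelihood test 8 of the 65 list genes had an unadjusted p below 0.05 at that dose, beside 600 of the 14172 genes tested. The counts were 24 of 65 at 32 µM, beside 3151, and 13 of 65 at 10 µM, beside 1709. Without the 2 libraries with epithelial markers Spp1 was called at 10 µM (adjusted p = 0.00941) and Thbs1 was not (log2 fold change -1.10, adjusted p = 0.0521).

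The matrix and soluble ligands (8 of 14 tested) had 4 called higher and 2 lower under LPS. Spp1, osteopontin, a ligand of αV and α4 integrins, went from 1122 CPM ± 3.52 in DMSO to 2508 ± 0.827 in DMSO + LPS (SD, n = 2), and was at 1390 ± 15.5 at 10 µM and 854 ± 2.06 at 32 µM. The last is a log2 fold change of -1.56 against DMSO + LPS (SE 0.032, adjusted p = 4.07e-07). Thbs1, thrombospondin 1, a ligand of CD47 and of αV integrins, had 0 counts in DMSO and 19.6 CPM ± 0.344 in DMSO + LPS, at least 754-fold higher against a floor of 3 counts over the DMSO group. It fell to 8.65 CPM ± 0.656 at 10 µM and to 1.89 ± 0.0746 at 32 µM (log2 fold change -3.37, SE 0.10, adjusted p = 4.70e-06). Tnc, the matrix glycoprotein tenascin C, named because it completes the 3 calls, went from 5.41 CPM in DMSO + LPS to 0.877 CPM at 32 µM (adjusted p = 3.06e-04). Tgfb1, the latent cytokine that αV integrins release, rose 1.85-fold under LPS, and Mfge8, a bridge between dying cells and αV integrins, fell to a ratio of 0.524.

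Among the other integrin subunits (9 of 17 tested) LPS raised 3 and lowered 3, which is 33.3% each way beside the 14.6% and 13.6% of all genes. The same shares of all genes apply to the LPS counts of the other lists. Itgb5, the β5 partner of αV, went from 206 CPM ± 7.18 to 31.7 ± 1.41 (log2 fold change -2.70, SE 0.057, adjusted p = 1.36e-08), the largest fall among the integrin subunits tested. Itgb7, the mucosal homing partner of α4, rose 1.75-fold to 35.8 CPM and Itga7, a laminin receptor chain, rose 2.02-fold to 15.1 CPM. edgeR's quasi-likelihood test called none of these 9 at a dose, apart from the alternatives given above that called Itga6 at 32 µM. The counter-receptors on cells (7 of 10 tested) were mostly below 3 CPM apart from Cd47, the receptor of thrombospondin 1 and partner of β3 integrins, which rose 2.64-fold under LPS from 82.0 to 216 CPM. At 32 µM Cd47 was at 149 CPM ± 6.43, a log2 fold change of -0.54 (SE 0.048, adjusted p = 2.43e-04) under the fold cutoff. Without replicate 2 at 32 µM it was -0.59 and was called (adjusted p = 0.00151), and with all libraries it was also the median of its list, where the other 6 genes were under 3 CPM. Vcam1, the ligand of α4β1, was too low to test.

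The genes of integrin activation (12 of 14 tested) had 2 called higher and 2 lower under LPS. Rap1b, a small GTPase that switches integrins on, rose 2.27-fold from 367 to 833 CPM, and Tln1, talin, which binds the β tail, rose 1.58-fold from 820 to 1298 CPM. Rassf5 (RAPL), an effector of Rap1, fell to a ratio of 0.420. The adhesion complex and its signaling (19 of 21 tested) had 8 higher and 1 lower. Src rose 8.50-fold from 21.8 to 185 CPM and Fgr 2.96-fold to 26.0 CPM, both kinases of the Src family, while Parvg, γ-parvin of the focal adhesion, fell to a ratio of 0.591. Of the 10 surface partners LPS raised 5 and lowered 1. Plaur, the urokinase receptor that associates with Mac-1, rose 11.9-fold from 53.5 to 638 CPM, and the tetraspanins Cd82 and Cd53 rose 3.33-fold and 2.09-fold, while the tetraspanin Cd81 went from 15.9 to 7.74 CPM. At 32 µM 0 of the genes in these 3 lists were called by edgeR.

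**Figure D4:**
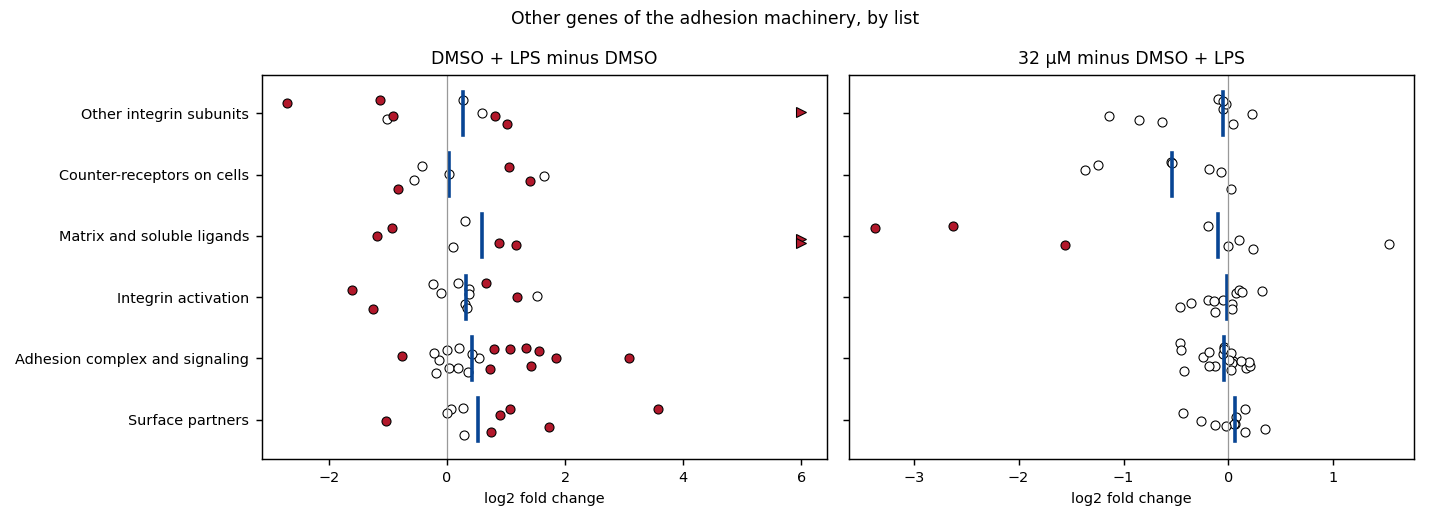
Log2 fold changes (x axis) of the tested genes of the 6 adhesion lists (y axis) under LPS and at 32 µM. Filled points were called, vertical bars are list medians, and triangles at 6 stand for larger fitted values, of genes at or near 0 in DMSO. Under LPS 24 points are filled on the right and 10 on the left, and at 32 µM the filled points are 3 ligands on the left.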

How the data were processed

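Poly(A) RNA of RAW264.7 cells was sequenced from stranded libraries on 1 lane. The values that the authors deposited are raw counts, not normalized, with a row for each Ensembl gene and a column for each library. The submitters' processing notes name Trimmomatic, FastQC, STAR, DESeq2 and mm10, without versions, and the counting tool, its annotation and its use of strand are not given in the sources used here. The smallest library held 45966803 counts, which gives a counting error of 6.60% at 5 CPM. Symbols, positions and transcript lengths are those of GENCODE M21 on GRCm38, and 42548 of 43432 identifiers have a symbol. Among the overlapping annotated genes with counts analysed here, Cerkl held the most counts, 451 beside 204301 of Itga4, and if strand was not used, reads of such a pair cannot be told apart. Gm47079, antisense to the end of Icam1, and Gm49368, on the same strand over nearly all of Itgam, have no row in the deposited counts. Reads that Gm49368 shares with Itgam would not be separated by strand.

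Genes were kept by filterByExpr (minimum count 10) and scaled by TMM. All 10 libraries were fitted together in edgeR 4.0.16 (R 4.3.3), with 1 mean per condition and 5 residual degrees of freedom. Calls needed a log2 ratio of at least 0.586 and a Benjamini-Hochberg adjusted p below 0.05 over 14172 genes. Levels between genes use CPM per kilobase of the longest coding transcript. The length planned was that of the median coding transcript. The longest replaced it after the lengths were seen, since the median was 630 nt for Itgb2 and 688 nt for Itgav, and values by both are given where they part. Motifs were searched on both strands in the 250 bases before the RefSeq start. The script was tested on simulated data.

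The members and the adhesion lists were chosen with earlier results of these data known. Named genes are the members, from each list the 3 highest and 3 lowest called genes with a mean of at least 5 CPM and libraries that do not overlap, the 2 genes most like each member called at 32 µM, and Nos2, Il1b and Nqo1. One gene that this rule names is not reported here. Tnc, Itga6, Vcam1 and Itgad were named after their values were seen. Marker lists covered macrophage, T cell, B cell, endothelial, fibroblast and epithelial genes. The alternatives tried were scaling by DESeq2's size factors or by library size alone, dropping the count filter or keeping genes with a mean of 5 CPM or more, a term for the replicate number, DESeq2 1.42.0, the likelihood ratio test, the 4 libraries compared, a short-transcript score (605 genes under 1000 nt), fold cutoffs of 2 and of none, the median transcript, and each library left out, where a lone library is assumed to vary like the others.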

Additional observations from a re-analysis of the deposited data

How the results depend on the processing

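The number of members called in each comparison was the same, or within 1.5 times, under every alternative except the fold cutoff: at 32 µM 1 became 0 with a 2-fold cutoff and 3 with none (Itgam, Itgal and Icam1), and at 10 µM 0 became 1 with none (Itgam). The labels name no common batch for the replicate numbers. The difference between replicates 1 and 2 correlated across genes between DMSO, 32, 10 and 3.2 µM, with r from 0.30 to 0.83 over 9562 genes, a hint from the data and not from the design. With the replicate block the fit called 7, 1, 0 and 0 members for LPS, 32, 10 and 3.2 µM, as without it. In DMSO + LPS that difference ran against the other conditions (r of -0.42 to -0.17), and a replicate block with its numbers crossed, added after seeing the data, called 7, 1, 0 and 0 members and 223 genes at 10 µM. Depth limits Itgb3, with 2 to 18 counts per library.

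Signs turned only for values near 0. Itgb1 became -0.16 for LPS and -0.16 for 32 µM with LPS against DMSO with library size alone. At 32 µM it became -0.0023 (DESeq2's size factors), -0.017 (no count filter), -0.0030 (mean of at least 5 CPM), -0.00076 (replicate block), -0.0018 (DESeq2), -0.0080 (4 libraries) and -0.026 (short-transcript score). Without the libraries with epithelial markers, at 10 µM Itgax became 0.013, Itga4 0.14 and Itgb1 0.019, at 3.2 µM Itgb1 0.0037, and Itgb1 between 32 and 10 µM -0.018. With the short-transcript score Itga4 became 0.034 at 10 µM and 0.065 at 3.2 µM, and Itgb1 0.046 at 3.2 µM and -0.0096 between 32 and 10 µM. Itga4 at 10 µM was 0.0033 with library size alone. Itgb2 at 3.2 µM was -0.00077 with library size alone, -0.0070 with no count filter and -0.0011 with the score. The cause was not tested.

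Leaving out each library in turn gave Itgb1 -0.038 to 0.11 for LPS, -0.057 to 0.056 at 32 µM, -0.12 to 0.019 at 10 µM, -0.017 to 0.017 at 3.2 µM, -0.018 to 0.11 between 32 and 10 µM and -0.037 to 0.099 for 32 µM with LPS against DMSO. It gave Itgav -0.39 to -0.15 for LPS, -0.13 to 0.088 at 32 µM and 0.014 to 0.35 at 10 µM. For Itga4 it gave -0.30 to -0.095 at 32 µM, -0.20 to 0.14 at 10 µM and -0.12 to 0.070 at 3.2 µM. For Itgax it gave -0.12 to 0.014 at 10 µM, -0.0034 to 0.10 at 3.2 µM and -0.069 to 0.044 between 32 and 10 µM. At 3.2 µM it gave Itgal -0.038 to 0.0069 and Itgb2 -0.0048 to 0.018.

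Over all genes, the count at 10 µM (122) became 41 on the 4 libraries, 229 with the score, 45 without the libraries with epithelial markers, 52 and 59 without DMSO + LPS replicate 1 or 2 and 227 without 10 µM replicate 2. The 0 at 3.2 µM became 66 on the 4 libraries and 5 with the score, and the 187 between 32 and 10 µM became 5 on the 4 libraries, 121 without the libraries with epithelial markers and 292 with the crossed block. With a 2-fold cutoff the counts for LPS, 32 and 10 µM were 2426, 317 and 36, with none 7220, 1386 and 378, and a mean of at least 5 CPM left 2635 for LPS, since fewer genes were tested. Levels per kilobase depend on the transcript: by the median transcript Itgb2 and Itgav stood at 944 and 493 CPM per kb in DMSO + LPS, since their models include short fragments.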
